A study of Drosophila melanogaster with 4 samples.

Results

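The regions described here are the stretches of chromosome 4 of Drosophila melanogaster that were called enriched for the chromatin protein HP4 in embryos. They were taken as every entry on the sequence named 4 in the 3 deposited region lists, which gave 59 of 2703 regions in ChIP replicate 1, 80 of 2674 in ChIP replicate 2 and 148 of 4366 in the list made for the replicate set, here called the combined list. These are 287 of 9743 entries in all, and no filter was applied. The assay was ChIP-seq, in which DNA crosslinked to a protein is pulled down with an antibody, here HP4 Q4072, and sequenced. All libraries came from wild-type Oregon-R embryos (Oregon-R-modENCODE) labelled as 14 to 16 h old, whereas the extraction protocol speaks only of embryos no older than 16 h. The series holds 2 ChIP and 2 input libraries, and each input served 1 ChIP library. Whole embryos were used, so the regions are an average over the cell types of the embryo. The lists hold positions and 1 score per region, and nothing in them checks the stage or the antibody. The depth of each library is unknown from them. The labels do not state whether the replicates are separate collections of embryos, so their spread may be technical only. Positions are those of FlyBase release 5, in which chromosome 4 is 1351857 bp long. No genome sequence of that release was used here, so regions are given by position and not by gene.

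Chromosome 4, the dot chromosome, is a small autosome on which genes and repeated sequence are interspersed along the whole length. It is known for carrying the heterochromatin protein HP1 and methylation of histone H3 at lysine 9 along its gene-bearing arm, and for POF, a protein that binds genes of this chromosome. HP4 is known as a binding partner of HP1. The left end of the assembled sequence faces the centromere and the right end faces the telomere. Telomeres of flies are built of retrotransposons and are bound by HP1.

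The first question was where along chromosome 4 HP4 was found. Taken as whole windows, both ends of the chromosome were more densely covered by HP4 regions than the rest, which was patchy. In the outermost 25 kb at each end, regions covered 72.0% of the sequence in replicate 1 and 72.2% in replicate 2. In the remaining sequence they covered 9.68% in replicate 1 and 14.9% in replicate 2. These ends make up 3.70% of the length and held 22.2% of the covered bases in replicate 1 and 15.7% in replicate 2. The end windows were set after the positions of the regions had been seen, and no test was made. With windows of 50 kb the ends were 4.30 ± 1.02 times as densely covered as the interior (SD, n = 2), with 5.02 in replicate 1 and 3.58 in replicate 2. In the combined list the same ratio was 2.42, with 70.7% of the ends and 29.2% of the interior covered. Single stretches of the interior were as dense as the ends. Between 60 and 70 kb from the right end the combined list covered 98.2%, against 68.4% of the outermost 10 kb there. Of a combined-list region from 777810 to 789171, replicate 1 covered 79.2% and replicate 2 covered 90.0%.

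**Figure D1:**
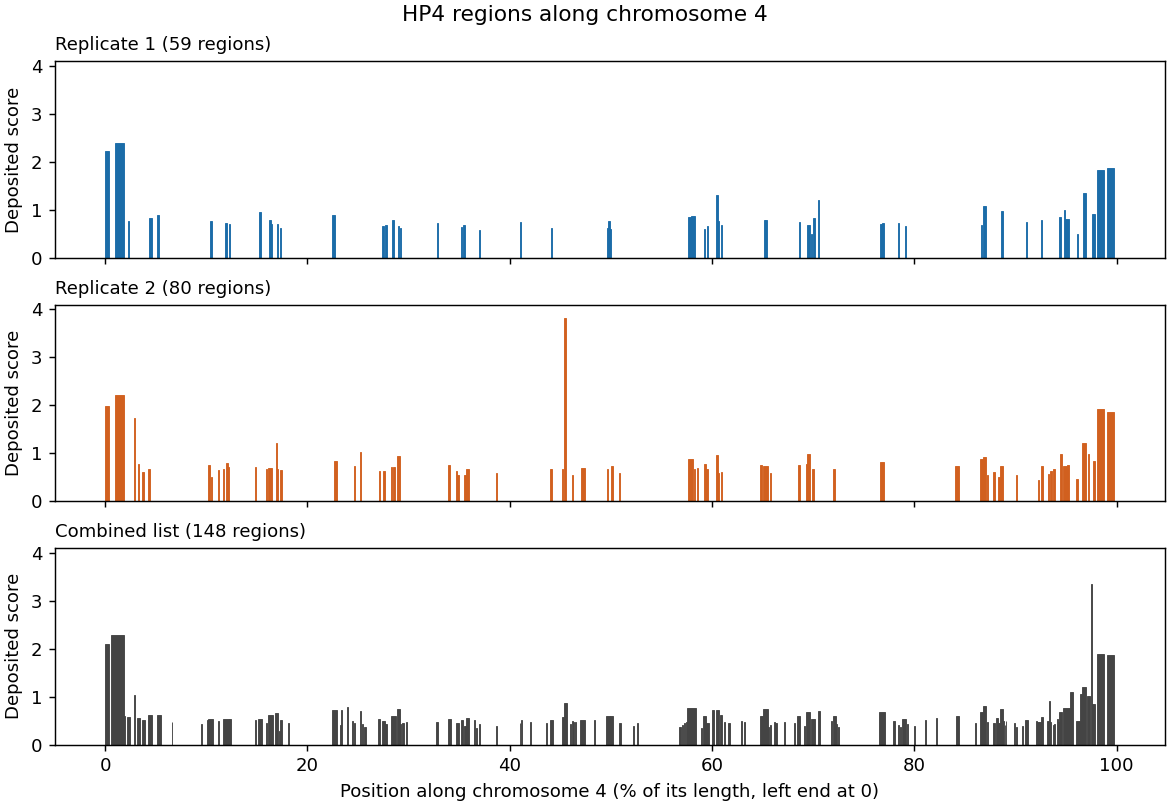
Each bar is a region on chromosome 4, drawn at its position as a percentage of the chromosome's length, with its width to scale under a thin outline and its height equal to the deposited score. In all 3 lists wide regions scoring near 2 stand at both ends, with low and mostly narrow regions between them; the tallest bar of replicate 2, at 3.82, has no region of replicate 1 at its place, and that of the combined list, at 3.36, has none of either replicate.

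The left end carried a pair of wide regions that the replicates placed almost identically. The first ran from 12 to 5272 in replicate 1, where it scored 2.24, and from 10 to 5306 in replicate 2, where it scored 1.98. It begins at the first bases of the sequence, so its left border cannot be placed. The second ran from 12671 to 24709 with a score of 2.39 in replicate 1 and from 12680 to 24706 with a score of 2.21 in replicate 2. The borders of the second region thus differed by 9 bp at its start and 3 bp at its end. It was the widest region on the chromosome in each replicate, at 12039 and 12027 bp. The combined list extended it leftward to a region from 8065 to 24827 with a score of 2.29, of which 71.8% was covered by replicate 1 and 71.7% by replicate 2. To its right the coverage dropped: between 30 and 40 kb from the left end, 13.5% of the sequence was covered in replicate 1 and 19.9% in replicate 2. It rose again in places. Between 50 and 60 kb replicate 2 had 43.7% and replicate 1 had 14.7%. Between 60 and 70 kb replicate 1 had 29.9% and replicate 2 had no region. The combined list covered 44.8% between 30 and 40 kb and 51.6% between 50 and 60 kb. Between 80 and 100 kb neither replicate had a region, and the combined list had only that from 88751 to 89753.

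In both replicates the right end was covered over more of its length than the left, in several blocks. Its outermost regions ran from 1325484 to 1335694 and from 1338557 to 1348394 in replicate 1, with scores of 1.84 and 1.87. In replicate 2 they ran from 1325843 to 1335586 and from 1338644 to 1348691, with scores of 1.92 and 1.86. The scores of both regions therefore nearly coincided between the replicates. The last region stopped short of the end of the sequence by 3.16 kb in the combined list. Farther inward came a combined-list region from 1319190 to 1323765 that scored 0.86, with 0.91 in replicate 1 and 0.84 in replicate 2. Beyond it lay one from 1305900 to 1311366 that scored 1.21, with 1.34 and 1.21 in the replicates. Coverage was uneven: it was 22.8% and 37.0% in the replicates between 30 and 40 kb from the right end, and 13.4% and 15.8% between 50 and 60 kb, which is near the level of the interior. Between 60 and 70 kb the replicates had a separate block, where 69.9% of the sequence was covered in both. It lay mostly in a combined-list region from 1280026 to 1289518 that scored 0.76. In the combined list coverage was 70.1% between 30 and 40 kb, 53.2% between 50 and 60 kb and 98.2% between 60 and 70 kb. All of these were above the 29.2% of its interior. Within the last 50 kb, 55.4% was covered in replicate 1 and 59.1% in replicate 2. The first 50 kb of the left end reached 37.3% and 43.1%. In the outermost 25 kb the sides were closer, at 69.2% and 69.3% on the left and 74.7% and 75.1% on the right. In the combined list the left was ahead within 25 kb, at 88.7% against 76.4%. Within 50 kb it was behind there, at 64.3% against 77.0%. Median scores in the 50 kb windows were higher on the left in the replicates, at 2.24 and 1.86 on the left and 1.59 and 1.21 on the right. They rest on only 3 and 4 regions on the left and 4 and 5 on the right. In the combined list the medians were 0.82 over 6 regions on the left and 1.21 over 7 on the right.

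In steps of 100 kb, the interior rose and fell several times between the ends. The first bin was covered over 25.5% in replicate 1 and 25.9% in replicate 2, and the last, a remainder of 51.9 kb, over 53.5% and 56.9%. The 12 bins between them had replicate means of 4.38% to 20.6%, with a median of 11.2%. The lowest was the bin from 500001 to 600000, with 4.01% in replicate 1 and 4.74% in replicate 2. The highest was the bin from 1200001 to 1300000 next to the last bin, with 15.8% and 25.4%. Other peaks stood from 300001 to 400000, at 15.1% and 20.0%, and from 800001 to 900000, at 13.7% and 20.4%. Replicate 2 was above replicate 1 in 13 of the 14 bins, the exception being the bin from 1000001 to 1100000, at 6.71% and 4.79%. Several differences between neighbouring interior bins were no larger than the differences between replicates: from 1100001 to 1200000 the replicates had 7.53% and 20.5%. Left of the midpoint of the sequence lay 43.3% ± 0.547 of the covered bases (SD, n = 2).

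**Figure D2:**
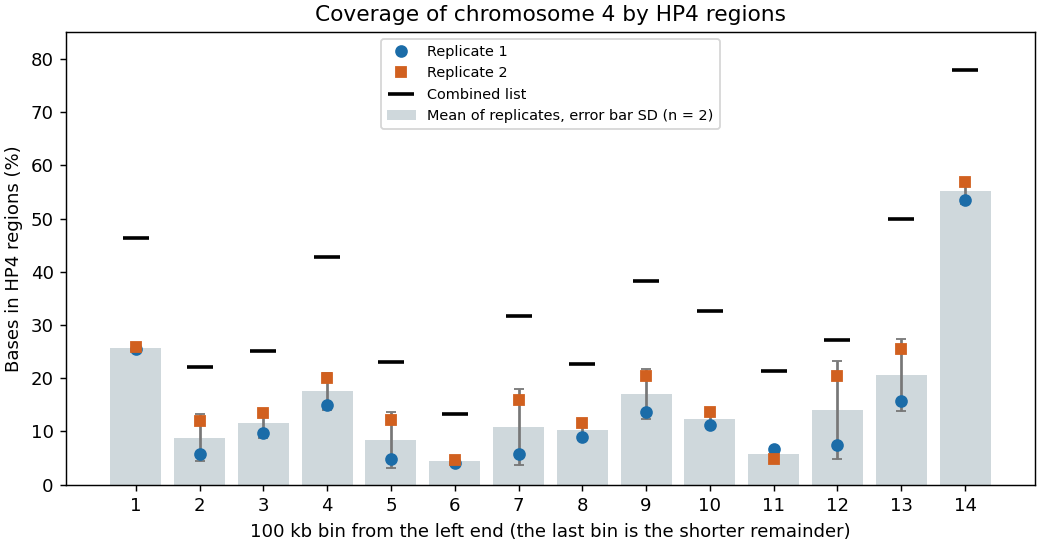
Percentage of bases in HP4 regions in consecutive 100 kb bins from the left end; grey bars are means of the replicates with SD (n = 2), points are the replicates and dashes the combined list. The first and last bins stand above the inner ones in both replicates, with means of 25.7% and 55.2% against at most 20.6%. In replicate 2 the first bin, at 25.9%, is barely above the bin next to the last, at 25.4%. In the combined list the bin next to the last, at 50.0%, is above the first, at 46.4%.

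Interior regions were narrow and scored low. Outside the last 50 kb at each end, the median width was 1882 bp over 52 regions in replicate 1 and 2030 bp over 71 regions in replicate 2. Their median scores were 0.73 in replicate 1 and 0.68 in replicate 2, against 1.84 and 1.74 over the 7 and 9 end regions. The value of 1.74 is the score of the replicate 2 region from 38008 to 40008, which no replicate 1 region overlapped. Scores above 1.5 were held by 4 regions in replicate 1, all with midpoints within the last 25 kb of an end. In replicate 2 they were held by 6, of which 4 had midpoints within the last 25 kb. Over all regions of chromosome 4, width and score rose together, with a Spearman rho of 0.71 in replicate 1 and 0.52 in replicate 2. This is a description across the 59 and 80 regions of single libraries, and the wide end regions are among them.

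**Figure D3:**
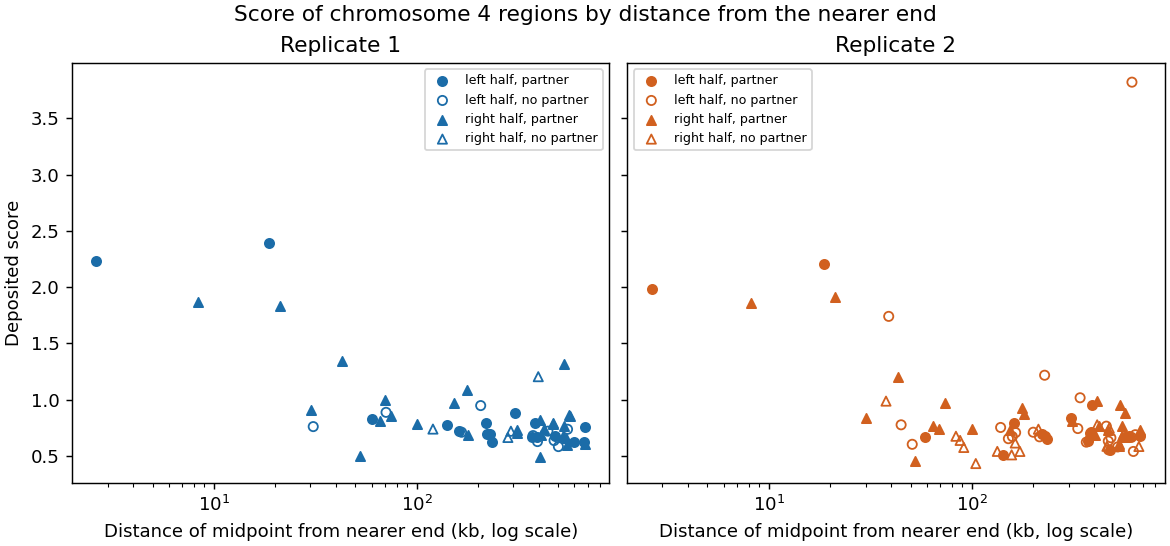
Score of each region against the distance of its midpoint from the nearer end of chromosome 4 (log scale), for replicate 1 and replicate 2; circles lie left of the midpoint of the sequence and triangles right of it, and open symbols have no overlap in the other replicate. The 4 regions nearest to an end score 1.84 to 2.39 in replicate 1 and 1.86 to 2.21 in replicate 2, while most others lie below 1.

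The widest interior region of the combined list was comparable in width to those at the ends. It ran from 777810 to 789171, over 11.4 kb, and scored 0.77. Replicate 1 covered 79.2% of it and replicate 2 covered 90.0%, each with 2 regions. In the replicate lists no interior region was wider than 5542 bp in replicate 1 or 7708 bp in replicate 2. The combined-list score of the 11.4 kb region was well under those of the end regions of like width. A narrower region from 1173482 to 1178014 scored 0.80, with 1.08 in replicate 1 and 0.93 in replicate 2. One from 390482 to 393734 scored 0.75, with 0.67 and 0.95 in the replicates. These and the end regions already given are the 10 highest-scoring combined-list regions that both replicates overlapped, and 6 of them lay within 50 kb of an end.

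Between the interior regions lay long stretches with no region in any list. The longest ran over 58.0 kb from 245171 to 303157, followed by 55.4 kb from 712281 to 767664 and 54.4 kb from 980600 to 1034960. There were 10 such stretches longer than 20 kb, which together made up 27.7% of the chromosome, and none came nearer than 89.8 kb to an end. The median gap between neighbouring regions was 7923 bp in replicate 1, 5238 bp in replicate 2 and 2739 bp in the combined list. A stretch without a region is one in which nothing passed the authors' threshold, which is not given in the sources used here, and HP4 below it cannot be told from none.

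The second comparison was between the replicates. They shared 115.8 kb of covered sequence, which was 71.5% of the covered bases of replicate 1 and 50.4% of those of replicate 2. The Jaccard index, the shared bases divided by the bases in either list, was 0.419. It was 0.820 within 50 kb of the ends and 0.323 in the interior, with 43.9 kb shared at the ends and 71.8 kb in the interior. A denser stretch gives a higher index by chance, and the ends are denser. Left of the midpoint the index was 0.294 and right of it 0.533.

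Counted by region, 45 of the 59 regions of replicate 1 had a partner in replicate 2, meaning a region sharing at least 1 bp with them. That is 76.3% (exact Clopper-Pearson 95% interval 63.4% to 86.4%, counting error only), against 82.8% over all sequences. Among the 80 regions of replicate 2, 42 had a partner in the other library, or 52.5% (41.0% to 63.8%), against 79.7% over all sequences. Overlap by chance depends on how densely a sequence is covered, so these shares do not rank chromosome 4 against the others. Replicate 2 covered 1.42 times as much of chromosome 4 as replicate 1, while the same ratio on the other 12 sequences ran from 0.961 to 1.19. Regions without a partner were narrower, although a wider region meets the minimum of 1 bp more easily. Their median width was 1595 bp in replicate 1 against 2239 bp for those with a partner, and 1714.5 bp in replicate 2 against 2814.5 bp. Scores differed less, with medians of 0.72 against 0.78 in replicate 1 and 0.67 against 0.74 in replicate 2.

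In 29 cases exactly 1 region of each replicate matched the other. Of these, 6 began or ended within 50 kb of an end of the chromosome, and their borders differed by a median of 97.5 bp between the replicates. The borders of the other 23 differed by a median of 532.5 bp and by up to 2744 bp. Between the scores of the 29 pairs, Pearson's r was 0.95 and Spearman's rho 0.66; over the 23 interior pairs r was 0.48 and rho 0.37. These are descriptions across regions of the same libraries. The high r over all pairs thus rested on the end regions.

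Some high scores were not shared. The highest score on chromosome 4 in any list was 3.82, for a replicate 2 region of 1587 bp from 613827 to 615413. Replicate 1 had no region there, and the combined-list region around it, from 613476 to 617081, scored 0.87. Replicate 2 also had a region from 38008 to 40008 that scored 1.74, and the combined list gave 1.04 there. Another, from 227696 to 229126, scored 1.22, with 0.66 for the combined-list region. In replicate 1 the highest scores without a partner were lower: 1.21 from 952748 to 954525, 0.95 from 205920 to 208356 and 0.89 from 69113 to 72366. None of these regions is wider than 3254 bp. The ends thus held the highest scores that recurred, while the highest score of all did not recur.

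The combined list was then compared with the replicate lists. It covered 32.3% of chromosome 4, 436.8 kb, against 12.0% in replicate 1 and 17.0% in replicate 2. It contained part of all 59 replicate 1 regions and of 79 of the 80 replicate 2 regions. Of its covered bases, 38.1% lay in no region of either replicate. Both replicates overlapped 37 of its 148 regions, or 25% (exact interval 18.3% to 32.8%), against 37.6% over all sequences. These 37 regions carried 48.9% of its covered bases on the chromosome. Replicate 2 alone overlapped 33 regions and replicate 1 alone 15. Neither overlapped 63 regions, or 42.6% (34.5% to 51.0%), which is near the 44.5% found over all sequences.

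Combined-list regions with overlap in both replicates were wide, at a median of 4803 bp, and their median score was 0.66. Those without any replicate overlap were 1356 bp wide at the median, with 0.46 as their median score, and 57 of the 63 were narrower than 2000 bp. Width and overlap are not independent here, since a wider region meets the minimum of 1 bp more easily. The 3 highest-scoring regions without replicate overlap all ended within 60 kb of the right end. A region from 1317630 to 1318630 scored 3.36, the highest value of the combined list on chromosome 4, at the list's smallest width of 1001 bp. The others ran from 1289701 to 1293571 with a score of 1.11 and from 1303069 to 1305484 with a score of 1.06.

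**Figure D4:**
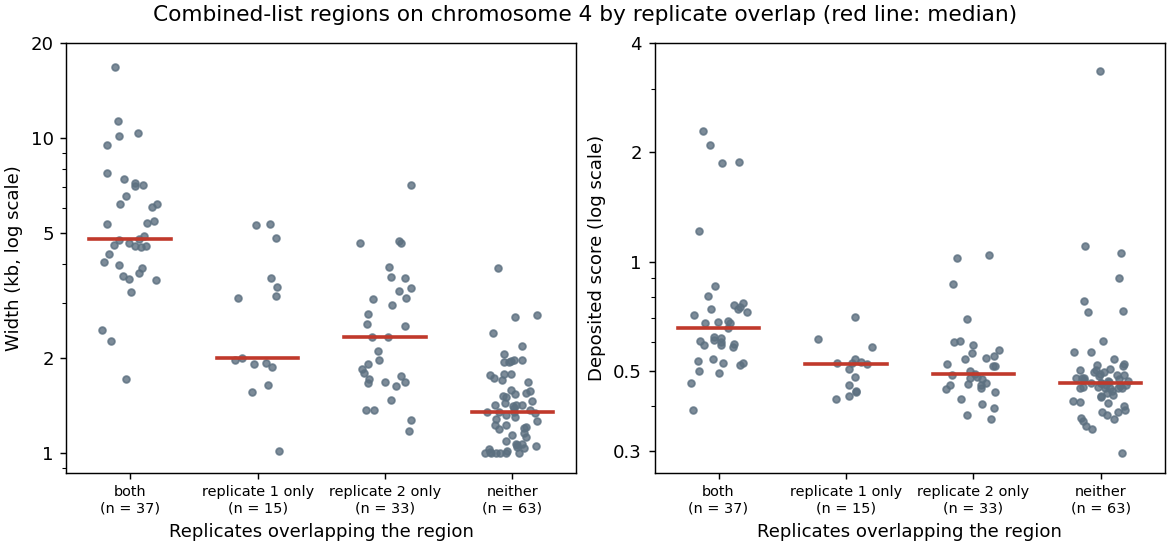
Width (left, kb) and deposited score (right) of each combined-list region on chromosome 4, both on log scales, grouped by which replicates overlap it; red lines are medians. Widths fall from a median of 4803 bp with both replicates to 1356 bp with neither, and the scores of the groups overlap widely. Overlap means at least 1 bp, which a wider region meets more easily.

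The last comparison placed chromosome 4 among the other sequences. HP4 regions were frequent there, but scored low. Away from the ends, chromosome 4 was covered over 11.8% ± 3.56 (SD, n = 2), and the large arms 2L, 2R, 3L, 3R and X, without the 3 Mb nearest the centromere, over 0.493% ± 0.0495. The interior of chromosome 4 was therefore 20.2 times as densely covered in replicate 1 and 27.0 times in replicate 2. With those 3 Mb included, the arms were covered over 2.53% ± 0.0725. Chromosome 4 as a whole was then 4.84 times as densely covered in replicate 1 and 6.60 times in replicate 2. The 3 Mb nearest the centromere were not set beside chromosome 4 by themselves. Single regions of the interior and of the distal arms had close median scores. The interior of chromosome 4 had a median score of 0.73 in replicate 1 and 0.68 in replicate 2, and the distal arms had 0.78 and 0.76. Median widths were 1882 and 2030 bp against 1649 and 1894 bp. The number of regions differed more, with 49.1 ± 10.7 regions per Mb against 2.38 ± 0.136. In the combined list the gap was smaller, at 107.8 against 12.9 regions per Mb and 15.3 times the coverage, and widths differed too, at medians of 1923 and 1219 bp. The Het scaffolds of chromosomes 2, 3 and X, which hold repeat-rich heterochromatin outside the arms, had 94.1 ± 1.03 regions per Mb, and their median score was 1.15 ± 0.03 at a median width of 3592 ± 8.13 bp. The order of region numbers turned around in the combined list, with 107.8 regions per Mb in the interior of chromosome 4 and 90.4 on the Het scaffolds, where regions were wider. Chromosome 4 as a whole was covered 0.279 ± 0.0641 times as densely as they were.

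The scores of chromosome 4 stood low in each whole list. Its median score exceeded that of only 11.4% of all replicate 1 regions, 11.3% of all replicate 2 regions and 16.4% of the combined list. These shares depend on the make-up of the lists. In replicate 1, the unplaced sequence U held 1017 and the Het scaffolds 847 of 2703 regions, with median scores of 1.60 and 1.18. In replicate 2 they held 1022 and 834 of 2674, with medians of 1.56 and 1.13. By median score chromosome 4 ranked lowest of the 13 sequences in replicate 2 and in the combined list. In replicate 1 it was second lowest at 0.74, above 3R, and the 2 differed by less than the medians of chromosome 4 differed between replicates. The 4 outermost regions, those with midpoints in the last 25 kb of an end, were an exception: their median scores were 2.05 and 1.95, above the whole-list medians of 1.25 and 1.20. With windows of 50 kb the end medians were 1.84 and 1.74, and with windows of 100 kb they were 0.91 and 0.81, below the whole-list medians. The telomere-facing 50 kb of 2L, 2R, 3L and 3R held no region in either replicate, and only that of 2L had any in the combined list, at 2.19%. That of X was covered over 15.7% in replicate 1 and 17.4% in replicate 2, and that of chromosome 4 over 55.4% and 59.1%. How far each assembled sequence reaches toward its telomere, and how much repeated sequence its end holds, was not tested. With 2 replicates, an exact permutation test of paired values cannot give a two-sided p below 0.5, so none of these differences between sequences was tested.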

How the data were processed

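Chromatin of formaldehyde-crosslinked embryos was immunoprecipitated with an antibody against HP4, per the labels' protocols. Per the submitters' processing notes, the aligner was Bowtie 0.12.7. Not given in the sources used here are the region caller, its threshold, the handling of reads from repeats, and how the combined list was made. Repeated sequence is interspersed along chromosome 4, so that handling could change the calls there, which was not tested. The authors deposited 1 score per region, whose scale is not stated; it was used to describe and rank regions within a list, and scores of matched regions were set side by side on the assumption of a like scale. Sequence lengths and the release came from the file headers.

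Covered bases, overlaps of at least 1 bp, Jaccard indices and gaps were computed with Python 3.11.15, numpy 2.4.6, pandas 2.3.3 and scipy 1.17.1, drawn with matplotlib 3.10.9, and checked on simulated intervals of known overlap. Samples were grouped by title; the input libraries gave no value. Named were the 10 highest-scoring combined regions overlapped by both replicates, the 5 widest, the 3 highest without replicate overlap, the 3 highest of each replicate without a partner, the 3 longest empty stretches, and the first and last regions; the bins, the end steps and the regions around these were added. The regions and comparisons were chosen with earlier results of these data known. No gene was assigned, since the gene table at hand is of another release. Alternatives were another overlap minimum, merging, score and width limits, region counts, the combined list, each replicate left out and omission of the ends.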

Additional observations from a re-analysis of the deposited data

How the results depend on the processing

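The covered share of chromosome 4, 14.5% on average, was 9.55% in the upper 50% of its regions by score, because fewer regions were kept, and 32.3% in the combined list. The Jaccard index was 0.443 in the upper 50% by score, 0.430 after merging regions up to 1000 bp apart, 0.294 left and 0.533 right of the midpoint, and 0.323 without 50 kb at each end. The overlapped share of replicate 1 was 61.0% when 50% of a region had to be covered and 44.1% with reciprocal overlap of 50%; that of replicate 2 was 32.5% with reciprocal overlap. The share of combined regions overlapped by both replicates was 14.2% when 50% had to be covered by each, 44.6% in the upper 50% by score and 52.9% for regions of at least 2000 bp. The share left of the midpoint was 47.3% for region counts, 36.6% in the upper 50% by score and 45.5% in the combined list. The median score was 0.50 in the combined list, and the mean weighted by width was 1.04. The ratio to the large arms, 5.72, was 8.48 for regions per Mb, 7.09 in the combined list, 2.96 in the upper 50% of each whole list and 29.2 against the arms without their proximal 3 Mb. The ratio to the Het scaffolds was 0.547, 0.494 and 0.109 under the first 3 of these; only 6 and 8 regions of chromosome 4 were in the upper 50% of the replicate lists. The ratio of ends to interior was 6.14 with 25 kb windows, 7.76 in the upper 50% by score and 2.42 in the combined list. Without replicate 1 or replicate 2 in turn, the covered share ran from 12.0% to 17.0%, the share left of the midpoint from 42.9% to 43.7%, the median score from 0.70 to 0.74, the ratio to the arms from 4.84 to 6.60, that to the Het scaffolds from 0.233 to 0.324 and that of ends to interior from 3.58 to 5.02. The only ratio to cross 1 was that to the Het scaffolds, at 1.21 for regions per Mb in the combined list (109.5 against 90.4), an alternative also chosen after seeing the data. The alternatives without the ends and all those for the ends were chosen after seeing the data. Apart from the stated ones, the cause was not tested. No paired analysis was possible because the lists give no values for the inputs. Depth is unknown, so no limit of detection can be given.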

Other observations

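Equal scores recurred on chromosome 4. Replicate 2 held 3 pairs of regions with identical scores, at 0.54, 0.68 and 0.78, and the combined list held 2 such pairs, at 0.39 and 0.54, while replicate 1 held none. The combined score was below both replicate scores in 25 of the 37 regions that both replicates overlapped, between them in 11 and above them in 1, taking the highest-scoring overlapping region of each replicate. After merging of regions up to 1000 bp apart, the combined list went from 148 to 101 regions on chromosome 4, replicate 1 from 59 to 50 and replicate 2 from 80 to 67.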
